A study of Tachysurus vachellii with 12 samples.

Results

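The proteasome genes of catfish liver were followed in the mRNA libraries of juvenile Tachysurus vachellii, a bagrid also called Pelteobagrus vachelli, kept at normal oxygen or exposed to hypoxia. The genes were taken as the assembled components that the deposited table places in the KEGG proteasome pathway or names psma, psmb, psmc, psmd, psme or psmf with a number, and 1 component, that with most counts, stands for each name. This gave 46 names from 59 components, of 9918 names and 34744 components in all. Of the 46, 14 encode the 20S core, 18 the 19S regulatory particle, 5 the activators and an inhibitor, 3 inducible or beta-like core subunits and 4 assembly factors. The other 2, RRP36 and Zdhhc16, carry the name of a different protein beside a proteasome annotation and are kept apart, which leaves 44 proteasome genes.

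The control group held 3 pools, lettered a, b and c, of untreated fish at 6.8 mg/L oxygen. The hypoxia group held 3 pools, lettered likewise, from the same aquaria after nitrogen gas had brought the water to 0.7 mg/L and held it there for 4 h. Each pool combined 5 livers, so the spread between pools is not that between single fish, and the labels name no strain, sex or genetic change. Controls were dissected before deoxygenation began and no fish at normal oxygen was taken at the later time, so low oxygen cannot be told apart from time of day, handling and nitrogen bubbling.

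The proteasome is the protease that destroys ubiquitin-tagged proteins in the cytosol and nucleus. Its core is a barrel whose outer alpha rings form the gate and whose inner beta rings hold the active sites, and its regulatory particle binds ubiquitin chains, removes them, and unfolds and threads the substrate with a ring of ATPases. In normal oxygen the alpha subunits of the hypoxia-inducible factor are hydroxylated, ubiquitinated through VHL and destroyed by this machine. In mammals cells that lose proteasome activity raise nearly all subunit genes together through the transcription factor NFE2L1.

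Levels are given as CPM, the counts scaled to a common library size, with edgeR's TMM factors, and, where genes are compared with one another, as the authors' RPKM, which is per transcript length. Total estimated counts ranged from 32652402 to 35852327 per library, where 3 counts stand for 0.0837 to 0.0919 CPM (counting error only). Of 25415 genes tested, 1159 rose and 458 fell at an adjusted p under 0.05, and both c libraries stood away from the remaining 4 along principal component 2. Hepatocyte markers were abundant in every pool, with 11 of 14 matched and a summed 69096 to 94550 CPM in controls and 67173 to 78183 CPM in hypoxia. The 6 matched exocrine pancreas markers summed to 93.9 to 4853 CPM in controls and 1820 to 7377 CPM in hypoxia, the 8 erythroid markers to 1273 to 2582 and 597 to 2512 CPM, and the 7 leukocyte and macrophage markers to 37.6 to 48.7 and 29.6 to 49.8 CPM. The 11 matched markers of endothelium, stellate and bile duct cells summed to 2135 to 2826 and 2273 to 2576 CPM. None of these 43 markers passed the test and none was at 0 in every library. In pooled tissue, fewer cells of a type and less RNA per cell cannot be told apart.

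None of the proteasome genes passed the test, yet nearly all had values below zero. In edgeR's quasi-likelihood test 43 of the 44 proteasome genes passed the filter on low counts, and the remaining one, psmb9, was too low to test. Of the 43, 0 rose and 0 fell, beside 6.36% of all genes tested that passed in either direction, 4.56% that rose and 1.8% that fell. DESeq2 and limma-voom also called 0 of the 43, where 3.14% and 1.55% of all genes tested fell. They gave 5 and 11 of the 43 an unadjusted p under 0.05. The share of all genes at that p was not counted for either tool, so the 5 and 11 are not read as a result. With the letters as a replicate block 0 passed beside 3.14% of all genes that fell, and with unscaled library totals 0 beside 1.4%. The log2 fold change was negative in 41 of the 43, with a median of -0.31 and a range of -0.69 to 0.02, while the median of all genes tested was -0.0034 and 50.2% of them were negative. At an unadjusted p under 0.05 there were 10 of the 43 (23.3%), all lower in hypoxia, beside 21.8% of all genes tested in either direction and 9.57% in the lower one. In 19 of the 43 (44.2%) the 3 hypoxia pools all lay below the 3 controls, beside 13.7% of all genes tested, and in 0 they all lay above, beside 14.6%. Standard errors of these log2 fold changes ran from 0.15 to 0.37.

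**Figure D1:**
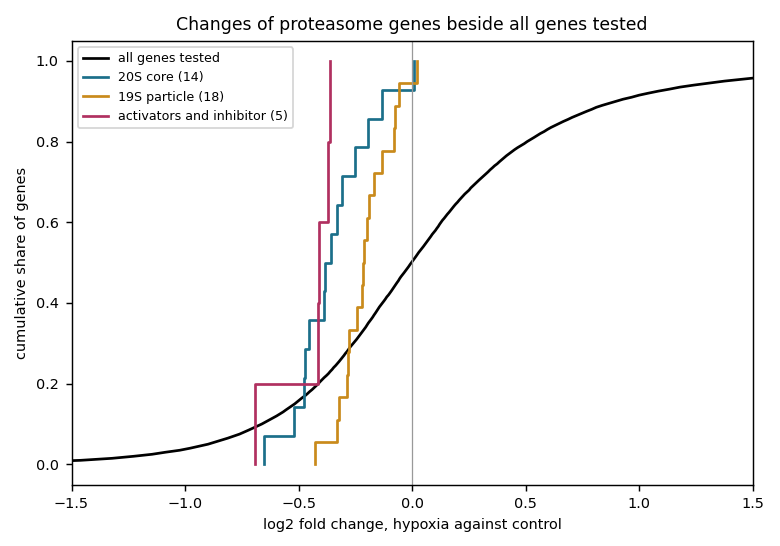
Cumulative share of genes (vertical axis) at or below each log2 fold change of hypoxia against control (horizontal axis, drawn from -1.5 to 1.5), for all 25415 genes tested and for 3 groups of proteasome genes. The activators with the inhibitor have a median of -0.41, the 20S core one of -0.37 and the 19S particle one of -0.21, and all genes tested lie about zero.

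The alpha subunits of the core form the outer rings that gate entry to the barrel. All 7 had negative log2 fold changes, from -0.65 to -0.25 with a median of -0.45. Of the 7, 5 had an unadjusted p under 0.05, beside 9.57% of all genes tested in the lower direction. After adjustment 0 of the 7 passed, beside 1.8% of all genes tested that fell. PSMA4 (comp8025_c0), whose adjusted p was the smallest of all members, had 37.04, 40.8 and 39.6 CPM in controls a to c, then 29.7, 28.00 and 24.1 CPM in hypoxia pools a to c. Its 3 hypoxia pools all lay below its 3 controls (log2 fold change -0.52, 95% interval -0.87 to -0.17, edgeR adjusted p = 0.086). psma2 (comp13537_c0) had 25.1, 21.7 and 36.9 CPM in controls, then 18.6, 15.7 and 18.9 CPM in hypoxia for a, b and c (log2 fold change -0.65, 95% interval -1.14 to -0.16, edgeR adjusted p = 0.12). Control c stood above the other 2 controls of psma2, the groups did not overlap, and without control c the log2 fold change was -0.41. PSMA1, the alpha subunit with the highest level per length, had 72.6, 79.9 and 65.3 CPM in controls, then 56.6, 60.6 and 52.6 CPM in hypoxia (log2 fold change -0.36, edgeR adjusted p = 0.23), again without overlap.

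Psma3, PSMA5 and psma7 differed from PSMA4 in that hypoxia a lay within the controls. Psma3 had 27.6, 30.97 and 35.3 CPM in controls, then 28.2, 21.8 and 17.7 CPM in hypoxia (log2 fold change -0.47, edgeR adjusted p = 0.22), and PSMA5 had 20.1, 25.5 and 25.1 CPM in controls, then 20.98, 16.5 and 14.1 CPM in hypoxia (log2 fold change -0.45, edgeR adjusted p = 0.21). In both, hypoxia a exceeded control a, and hypoxia b and c lay below all controls. PSMA6 had 25.2, 27.3 and 28.6 CPM in controls, then 23.1, 21.8 and 17.2 CPM in hypoxia (log2 fold change -0.39, edgeR adjusted p = 0.22), with all hypoxia pools below all controls, while psma7 stood at -0.25 and did not pass.

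The beta subunits form the inner rings, of which Psmb5, PSMB6 and Psmb7 carry the chymotrypsin-like, caspase-like and trypsin-like sites. None of these 3 catalytic subunits passed the test, beside 6.36% of all genes tested that passed in either direction. Psmb5 (comp13494_c0) had 18.99, 20.4 and 21.2 CPM in controls a to c, then 15.1, 15.3 and 13.2 CPM in hypoxia pools a to c, with every hypoxia pool below every control (log2 fold change -0.47, 95% interval -0.82 to -0.13, edgeR adjusted p = 0.11). PSMB6 (comp4219_c0) had 39.2, 41.2 and 36.9 CPM in controls, then 36.2, 41.7 and 28.98 CPM in hypoxia, and hypoxia b was the highest of the 6 (log2 fold change -0.14, 95% interval -0.53 to 0.26, edgeR adjusted p = 0.7). Psmb7 (comp14471_c0) had 39.9, 41.2 and 38.96 CPM in controls, then 44.9, 39.4 and 36.2 CPM in hypoxia, and hypoxia a was the highest of the 6 (log2 fold change 0.01, 95% interval -0.34 to 0.36, edgeR adjusted p = 0.99). The differences among the 3 log2 fold changes were not tested, and their intervals overlap. The non-catalytic subunits psmb1-A, PSMB2, psmb3 and psmb4 had log2 fold changes of -0.31, -0.39, -0.20 and -0.33, and the groups of psmb1-A, PSMB2 and psmb4 did not overlap. With Psmb5, every hypoxia pool lay below every control in 4 of the 7 beta genes, beside 13.7% of all genes tested. psmb4, the beta subunit with the highest level per length, had 62.6, 68.6 and 64.97 CPM in controls, then 59.3, 51.9 and 44.9 CPM in hypoxia (log2 fold change -0.33, edgeR adjusted p = 0.29).

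**Figure D2:**
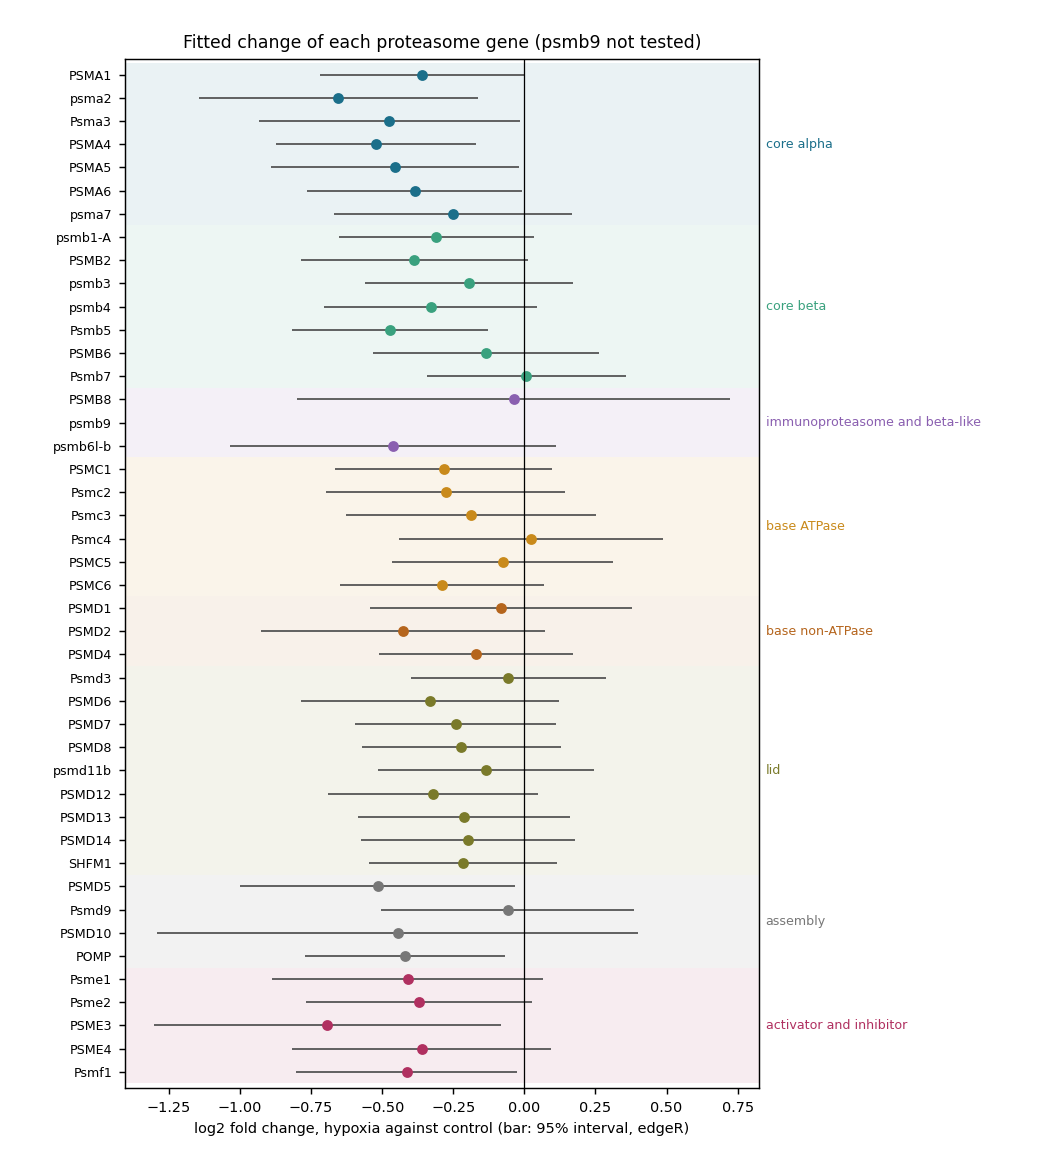
Log2 fold change of hypoxia against control (horizontal axis) for each proteasome gene, with its 95% interval from the edgeR fit as a bar and shading by part of the complex. The points of 41 of the 43 genes tested lie left of zero, the intervals of 10 exclude zero before adjustment, and none passed after adjustment.

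Subunits of the immunoproteasome replace catalytic subunits of the core in immune cells and in tissues exposed to interferon. Those with a named component, PSMB8 and psmb9, were scarce in these livers. No component carried the name psmb10, another of these subunits, so its level is not known. PSMB8, which takes the place of Psmb5, had 1.05, 1.97 and 2.18 CPM in controls a to c, then 1.33, 1.55 and 2.18 CPM in hypoxia pools a to c. The groups of PSMB8 overlapped fully, and its interval was wide (log2 fold change -0.04, 95% interval -0.80 to 0.72, edgeR adjusted p = 0.96). psmb9, which takes the place of PSMB6, was represented by a short component of 292 bases (effective length) with 4, 4 and 13 counts in controls a to c, then 2, 6 and 11 counts in hypoxia pools a to c. It was not tested, and counts this low allow no statement on a change. Another component, psmb6l-b, named for a PSMB6-like subunit, had 2.19, 2.85 and 3.49 CPM in controls, then 1.99, 1.80 and 2.39 CPM in hypoxia (log2 fold change -0.46, edgeR adjusted p = 0.33), and its hypoxia c lay above control a. Without control c the log2 fold change of psmb6l-b was -0.30. All 3 were highest in library c of their group. Their marker context was a summed leukocyte and macrophage level of 37.6 CPM in control c, the lowest control, and 49.8 CPM in hypoxia c, the highest hypoxia pool, and the part of leukocytes in these values was not tested. In RefSeq's annotation of the species (HZAU_Pvac_v1) psmb9a, psmb12, psmb8a and psmb13a are 4 consecutive entries of 1 chromosome, so these inducible and related beta genes are neighbours.

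The base of the regulatory particle holds the ATPase ring, which unfolds substrates, and large scaffold subunits. The 6 ATPases had log2 fold changes from -0.29 to 0.02 with a median of -0.23. Of the 6, 0 had an unadjusted p under 0.05, beside 21.8% of all genes tested in either direction. In 0 of the 6 were the groups separated, beside 13.7% of all genes with every hypoxia pool below the controls and 14.6% above. PSMC1 (comp7520_c0), the first of them, had 35.8, 36.5 and 43.6 CPM in controls a to c, then 35.97, 31.2 and 28.04 CPM in hypoxia pools a to c, with hypoxia a between control a and control b (log2 fold change -0.28, 95% interval -0.66 to 0.10, edgeR adjusted p = 0.37). PSMC5, the ATPase with the highest level per length, had 38.7, 45.2 and 43.7 CPM in controls, then 45.3, 42.3 and 33.5 CPM in hypoxia (log2 fold change -0.08, edgeR adjusted p = 0.84). Hypoxia a was the highest and hypoxia c the lowest pool of PSMC5. PSMC6, Psmc2 and Psmc3 had log2 fold changes of -0.29, -0.28 and -0.19, and Psmc4 one of 0.02. The scaffold PSMD2 had 39.2, 48.4 and 37.5 CPM in controls, then 37.4, 33.6 and 21.99 CPM in hypoxia (log2 fold change -0.43, edgeR adjusted p = 0.3), and its groups were separated by a narrow margin between hypoxia a and control c. Without hypoxia c the log2 fold change of PSMD2 was -0.25. The other scaffold, PSMD1, had a log2 fold change of -0.08, and PSMD4, a receptor for ubiquitin chains, one of -0.17.

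The lid carries the deubiquitinase that strips chains from substrates as they enter. All 9 lid genes had negative log2 fold changes, from -0.33 to -0.06 with a median of -0.22. Of the 9, 0 had an unadjusted p under 0.05, beside 9.57% of all genes tested in the lower direction. PSMD14 (comp21657_c0), that deubiquitinase, had 33.9, 34.8 and 36.4 CPM in controls a to c, then 33.1, 33.3 and 25.2 CPM in hypoxia pools a to c. Its hypoxia a and b lay just below the lowest control and its hypoxia c well below (log2 fold change -0.20, 95% interval -0.57 to 0.18, edgeR adjusted p = 0.53). SHFM1, the small subunit DSS1 and the lid gene with the highest level per length, had 19.1, 17.2 and 17.2 CPM in controls, then 14.99, 15.4 and 15.7 CPM in hypoxia (log2 fold change -0.22, edgeR adjusted p = 0.44), with no overlap. PSMD6 and PSMD12 had log2 fold changes of -0.33 and -0.32, and PSMD7, PSMD8, PSMD13, psmd11b and Psmd3 ran from -0.24 to -0.06. The groups did not overlap in 4 of the 9, PSMD7, PSMD12, PSMD14 and SHFM1, beside 13.7% of all genes tested. On leaving out hypoxia c, PSMD6 went to -0.19, and on leaving out hypoxia a to -0.51.

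Activators cap the core in place of the regulatory particle. All 5 genes of this group had negative log2 fold changes, from -0.69 to -0.36 with a median of -0.41. Of the 5, 0 passed, beside 1.8% of all genes tested that fell. PSME3 (comp10525_c0), the nuclear PA28 gamma cap, had the lowest fold change of all members with every library in the fit, at 8.05, 7.09 and 8.35 CPM in controls a to c, then 6.62, 4.87 and 3.04 CPM in hypoxia pools a to c. Every hypoxia pool lay below every control, hypoxia a by little and hypoxia c by most (log2 fold change -0.69, 95% interval -1.30 to -0.08, edgeR adjusted p = 0.17). Without hypoxia c its log2 fold change was -0.46, and it was no longer the lowest, with PSMD10 at -0.79 and psma2 at -0.72. The value of PSMD10 rests there on low counts, 15 and 21 in hypoxia a and b. Psmf1, named for the inhibitor PI31, had 7.76, 7.09 and 7.44 CPM in controls, then 5.23, 6.28 and 5.22 CPM in hypoxia (log2 fold change -0.41, edgeR adjusted p = 0.2), without overlap.

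Psme1 and Psme2 encode the alpha and beta subunits of the PA28 cap, which in mammals is induced by interferon. Psme1 had 31.4, 34.4 and 50.95 CPM in controls, then 27.3, 27.8 and 32.73 CPM in hypoxia (log2 fold change -0.41, edgeR adjusted p = 0.3), and Psme2 had 22.8, 23.03 and 30.7 CPM in controls, then 17.98, 20.1 and 21.2 CPM in hypoxia (log2 fold change -0.37, edgeR adjusted p = 0.26). Within each group library c was highest for both, so that hypoxia c of Psme1 lay above control a. PSME4, the PA200 cap, had 27.3, 30.1 and 36.03 CPM in controls, then 20.9, 21.3 and 30.6 CPM in hypoxia (log2 fold change -0.36, edgeR adjusted p = 0.34) and also had library c highest in both groups. Without control c the log2 fold changes of Psme1 and Psme2 were -0.18 and -0.22, and without hypoxia c that of PSME4 was -0.58. Library c was highest in both groups for 9 of the 44 proteasome genes, beside 19.3% of all genes tested, a share near the background.

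Assembly factors guide the subunits together. POMP (comp4736_c0), which matures the core, had 17.4, 18.2 and 18.7 CPM in controls a to c, then 12.4, 15.1 and 13.1 CPM in hypoxia pools a to c, with every hypoxia pool below every control (log2 fold change -0.42, 95% interval -0.77 to -0.07, edgeR adjusted p = 0.15). PSMD5, a chaperone of the base, had 3.35, 3.67 and 3.99 CPM in controls, then 2.51, 2.21 and 2.98 CPM in hypoxia (log2 fold change -0.52, edgeR adjusted p = 0.2), also without overlap. The base chaperones Psmd9 and PSMD10 had log2 fold changes of -0.06 and -0.45, and their groups overlapped. PSMD10 had 33, 22 and 33 counts in controls a to c, then 15, 21 and 31 in hypoxia pools a to c, and a wide 95% interval of -1.29 to 0.40. The log2 fold change of PSMD10 was -0.26 without hypoxia a and -0.79 without hypoxia c. The components RRP36 and Zdhhc16, named for other proteins, had log2 fold changes of -0.31 and -0.33, and neither passed. Without control c they were -0.14 and -0.13. The other Zdhhc16 component, comp14237_c0, had a log2 fold change of 0.07.

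**Figure D3:**
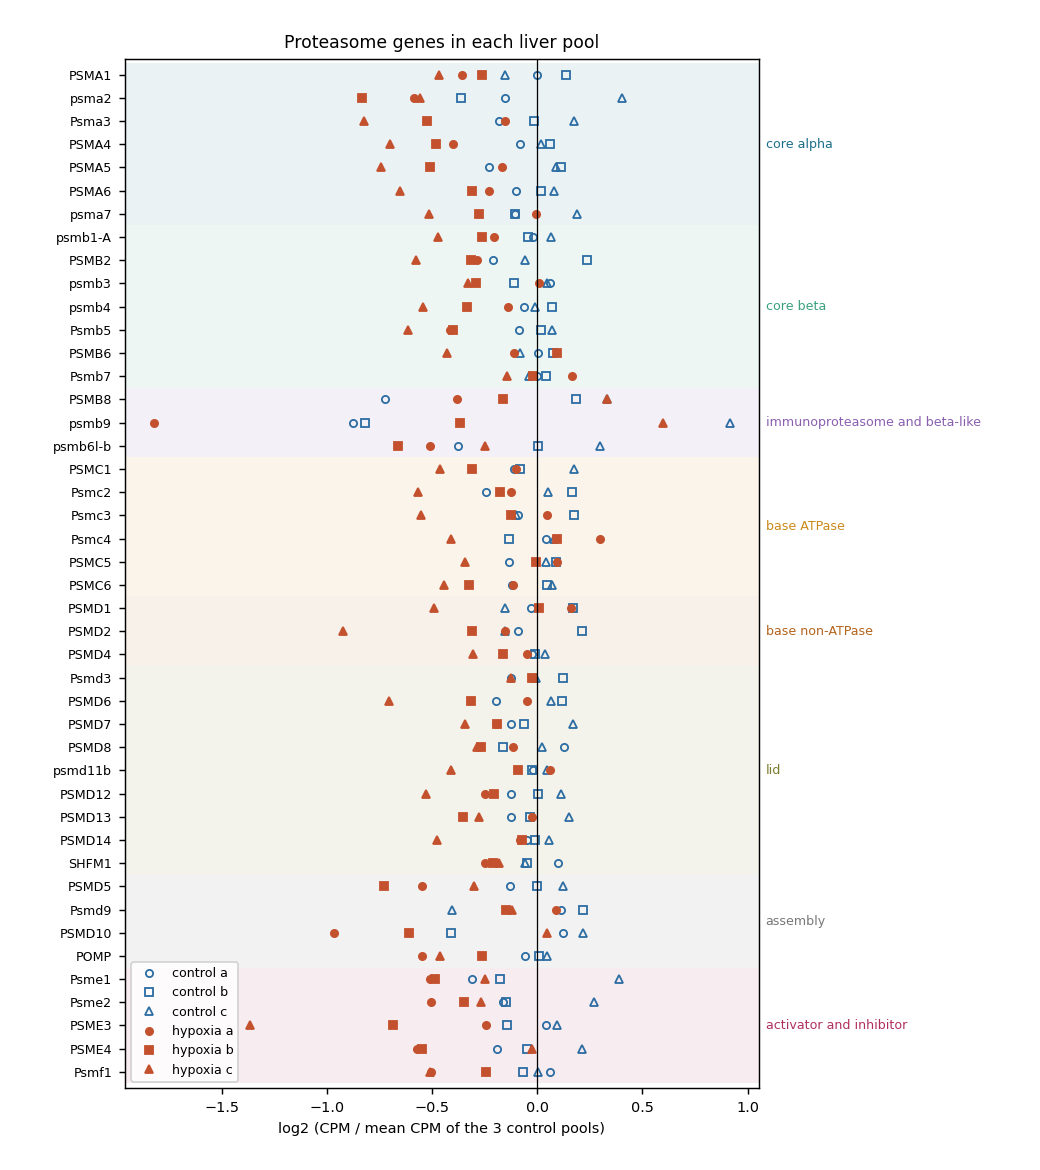
Log2 ratio of each proteasome gene in each pool to the mean of its 3 control pools (horizontal axis), with controls as open blue and hypoxia pools as filled red symbols and the letters as circle, square and triangle. Hypoxia c is the lowest of the 3 hypoxia pools in 31 of the 44 genes, and hypoxia a is the highest of them in 26.

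The pools differed in how far these genes lay from the controls. Relative to the control mean, the median log2 ratio over the 44 genes was -0.16 in hypoxia a, -0.29 in hypoxia b and -0.45 in hypoxia c, beside -0.10, 0.00 and 0.06 in control a, b and c. Below the control mean were 36 genes in hypoxia a, 41 in hypoxia b and 41 in hypoxia c, and 35, 22 and 11 in controls a, b and c. The share of all genes below their control mean was not counted. Compared within letters, hypoxia was lower in 28 of the 44 genes for letter a (median log2 ratio -0.08), in 41 for letter b (-0.29) and in 42 for letter c (-0.51). Among the 5805 genes with a mean of at least 10 CPM, the same medians were 0.07, 0.00 and -0.05, and 43.7%, 49.7% and 54.5% were lower in hypoxia. Hypoxia c was the lowest hypoxia pool in 31 of the 44 proteasome genes, beside 38.8% of all genes tested. Without both letter c libraries the median over the 43 genes tested was -0.19, 38 were negative, and 0 passed, beside 5.77% of all genes tested that fell. Without control c alone 0 passed beside 1.92%, and without hypoxia c alone 0 beside 1.96%.

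Summed over genes, the core lay further from its controls than the regulatory particle. The 14 core genes summed to 468, 505 and 501 CPM in controls a to c, and to 428, 399 and 344 CPM in hypoxia pools a to c. The means were 491 ± 20.4 and 390 ± 43.0 CPM (SD, n = 3), a difference of 20.6%, and the groups did not overlap. The 18 genes of the regulatory particle summed to 574, 631 and 619 CPM in the controls and to 593, 543 and 449 CPM in hypoxia, a difference of 13.0% between means, and hypoxia a lay among the controls. Within the core the 7 alpha genes differed by 26.1% and the 7 beta genes by 15.4%. The ratio of the core sum to the regulatory sum was 0.816, 0.8003 and 0.810 in controls a to c, and 0.722, 0.734 and 0.765 in hypoxia pools a to c. This ratio does not depend on how the libraries are scaled, and its groups did not overlap. The sums take 1 component per name, and how often sums or ratios of other genes separate the groups was not counted. The members were known when these sums were formed, so no test was applied to them. The 5 activator and inhibitor genes summed to 97.2, 102 and 134 CPM in the controls and to 78.0, 80.3 and 92.7 CPM in hypoxia, a difference of 24.5%.

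**Figure D4:**
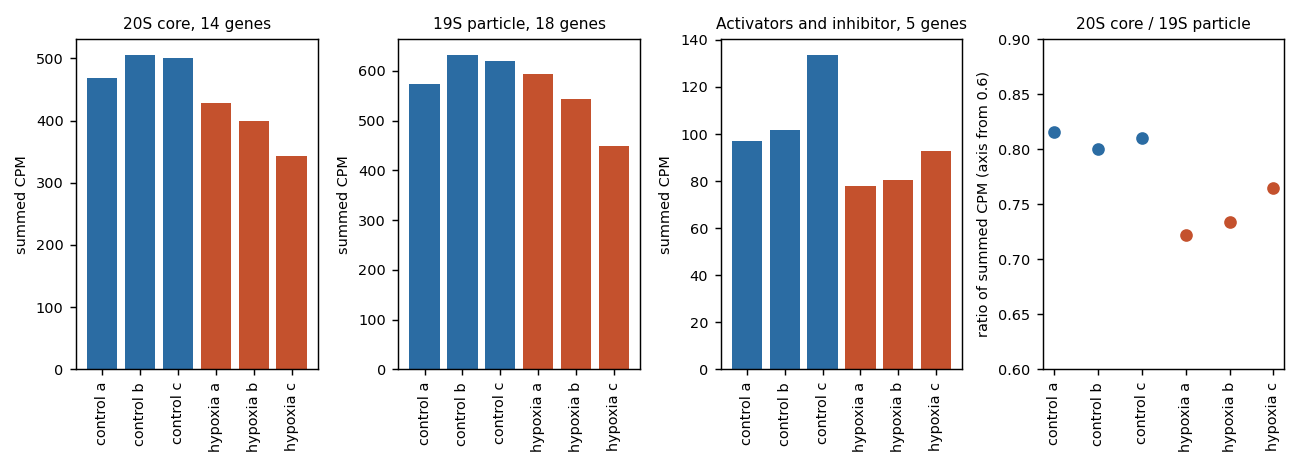
Summed CPM of the 20S core, the 19S particle and the activators with the inhibitor in each of the 6 pools (bars from 0, controls blue, hypoxia red), and the ratio of the core sum to the 19S sum (points, axis from 0.6). The core sum and the ratio separate the groups, at 468 to 505 against 344 to 428 CPM and at 0.8003 to 0.816 against 0.722 to 0.765, while hypoxia a lies among the controls for the 19S particle.

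Although the subunits of a ring occur in equal number in the assembled particle, their transcript levels per length differed. These levels, spans and ranks are of the 1 component used for each name, and other components of split names are left out. The psma7 component used held 63.1% of its counts, and its second component stood at 9.68 RPKM in controls. Psmc4 stood at 13.9 RPKM, and its other component at 23.0 RPKM. In the controls the core genes ran from 14.5 ± 1.27 RPKM for psma7 and 16.2 ± 0.0404 for Psmb5 to 70.1 ± 3.13 for psmb4 and 73.8 ± 9.10 for PSMA1 (mean ± SD, n = 3), a spread of 5.10-fold. The ATPases spanned 2.48-fold, from 12.5 ± 1.40 RPKM for Psmc3 to 30.98 ± 1.31 for PSMC5, and the lid 3.70-fold, from 10.9 ± 0.444 for psmd11b to 40.4 ± 4.77 for SHFM1. Median control levels were 31.7 RPKM in the core and 18.6 RPKM in the regulatory particle. The caps PSME3 and PSME4 stood at 4.93 ± 0.496 and 5.26 ± 1.25 RPKM against 36.9 ± 8.35 and 26.8 ± 3.69 for Psme1 and Psme2. PSMB8 stood at 1.81 ± 0.551 RPKM beside 16.2 ± 0.0404 for its standard counterpart Psmb5. PSMD5 and PSMD10 were the lowest members after psmb9, at 1.81 ± 0.0643 and 1.57 ± 0.357 RPKM, while the core factor POMP stood at 28.5 ± 0.501. Ranked among the 44 genes, PSMA1 and psmb4 were first and second in both groups. psma2 stood 12th in controls and 20th in hypoxia, PSMA4 8th and 12th, PSMC5 14th and 9th, and Psmb7 5th and 3rd.

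**Figure D5:**
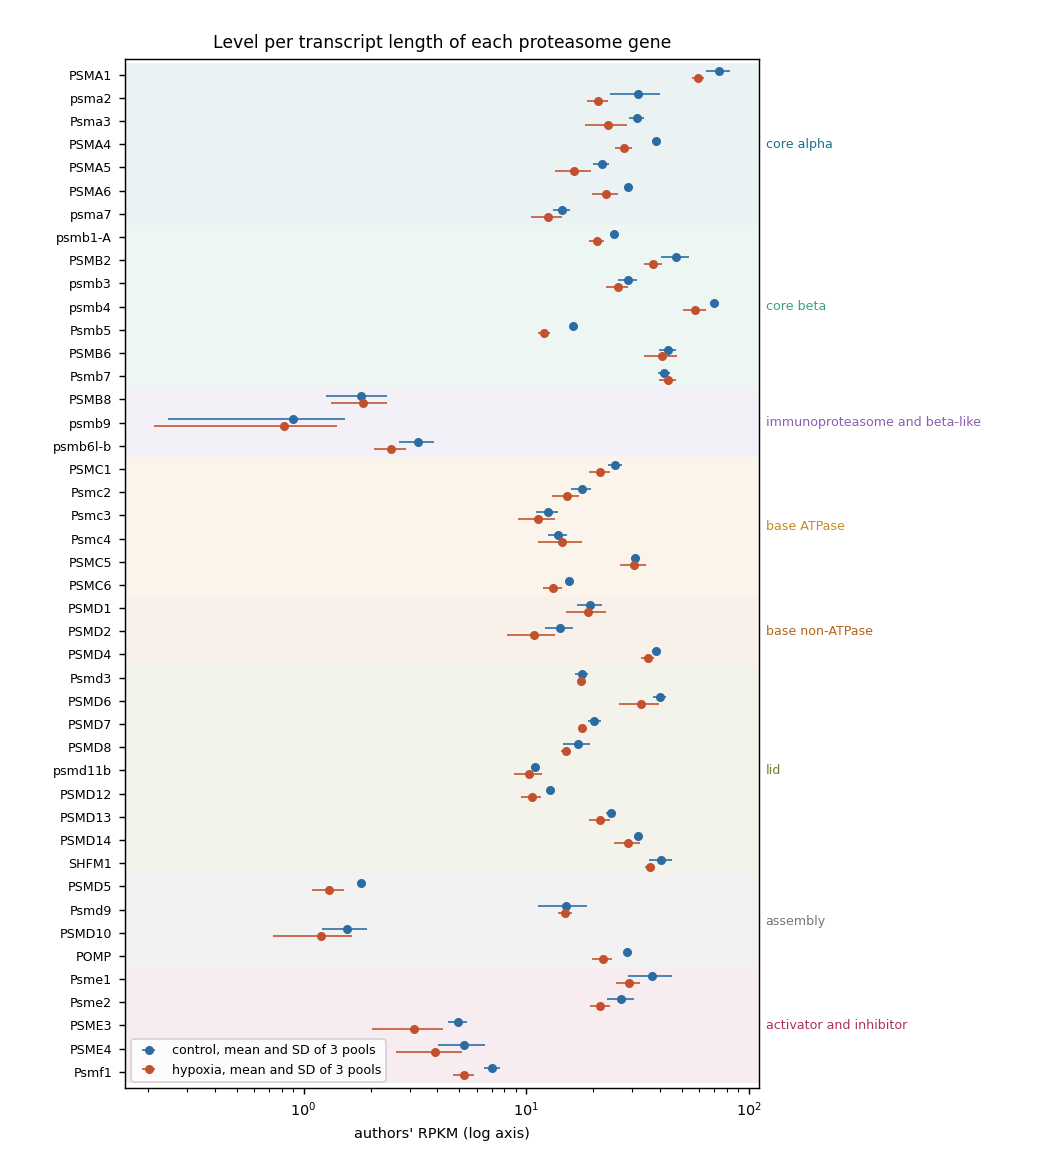
The authors' RPKM (log axis) of each proteasome gene in control (blue) and hypoxia (red), as the mean with the SD of 3 pools, shaded by part of the complex. By the 1 component used for each name, core genes span 14.5 to 73.8 RPKM in controls. The inducible subunits psmb9 and PSMB8 stand at 0.893 and 1.81, psmb6l-b at 3.28, and PSMA1 and psmb4 are the highest in both groups.

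Several names were split over components, so counts may be shared between copies or fragments. PSMA6 had 4 components, of which the one used held 55.4% of the counts. The second, comp16529_c0, had 12.8, 14.7 and 17.04 CPM in controls, then 11.03, 10.98 and 8.67 CPM in hypoxia, without overlap (log2 fold change -0.54, edgeR adjusted p = 0.12). The PSMA6 components comp4624_c0 and comp4624_c1 had log2 fold changes of -0.25 and 0.11, with groups that overlapped. The other component of psma2 had a log2 fold change of -0.40, and its groups did not overlap. The further PSMC1 components comp9180_c0, comp9180_c1 and comp9180_c2 had 0.55, -0.28 and -0.20, comp9180_c0 on 5 to 17 counts per pool. The second Psmb7 component had -0.08, near the 0.01 of the first. PSMC4 was split into components of 811 and 480 bases with log2 fold changes of 0.02 and -0.13. With the components of each name summed before the fit the median over the 43 genes was -0.31, 43 were negative and 0 passed.

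Adrm1 encodes another ubiquitin receptor of the base, and lies outside the names above because the table places it in no pathway. It was looked up after its values were seen. The component comp16386_c0, named adrm1b, had 10.4, 11.2 and 10.2 CPM in controls a to c, then 5.08, 5.78 and 4.19 CPM in hypoxia pools a to c and fell (log2 fold change -1.08, 95% interval -1.49 to -0.67, edgeR adjusted p = 0.011), with the groups far apart. It lost the call without control a (adjusted p = 0.061) and without control b (0.060). A second adrm1b component, comp9408_c0, was more abundant and had 23.8, 23.7 and 29.6 CPM in controls, then 24.6, 21.7 and 22.3 CPM in hypoxia (log2 fold change -0.17, edgeR adjusted p = 0.59). The table does not say how the components relate, so the sum of both is not known to stand for 1 gene. ECM29 and Ankrd39 were looked up together with adrm1b and did not pass. The ECM29 components comp16189_c0 and comp2774_c0 had log2 fold changes of -0.06 and 0.04 (edgeR adjusted p = 0.87 and 0.90). Ankrd39 had one of -0.10 (edgeR adjusted p = 0.88).

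The genes that work beside the proteasome were read from 7 lists with 82 names matched of 111 listed. Of the 81 tested, 1 rose, 3 fell and 77 did not pass, beside 4.56% of all genes tested that rose and 1.8% that fell, with a median log2 fold change of -0.18. In either direction 4 of the 81 passed, beside 6.36% of all genes tested. By direction the shares differ from those of all genes, with fewer that rose and more that fell, on very few calls. In each single list 1 gene at most passed, so these counts are not read as a result. The 6 matched genes of the assembly list (POMP and ublcp1 included) had log2 fold changes from -0.75 to -0.16, all negative, beside 50.2% of all genes tested. Of the 6, 0 passed, beside 6.36% of all genes tested. Among them psmg2, a chaperone of the alpha ring, had 20.7, 21.00 and 20.03 CPM in controls, then 14.3, 14.1 and 13.5 CPM in hypoxia, with no overlap and little spread within groups (log2 fold change -0.56, edgeR adjusted p = 0.055). Its adjusted p was under 0.05 with DESeq2 (0.035), with the replicate block (0.047), with a filter of 1 CPM (0.038) and without both letter c libraries (0.024). PSMG4, another such chaperone, had 1.72, 1.67 and 1.34 CPM in controls, then 1.06, 0.802 and 0.943 CPM in hypoxia (log2 fold change -0.75, edgeR adjusted p = 0.14).

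Of 10 shuttle factors and proteins that bind the proteasome, among them deubiquitinases and the ubiquitin ligases UBE3A and UBE3C, 0 passed, and 5 were negative. Over all genes tested 6.36% passed and 50.2% were negative. A pair of receptors that carry ubiquitinated proteins had the smallest p of the list. Sqstm1, the autophagy receptor p62, had 132, 129 and 67.7 CPM in controls, then 157, 206 and 256 CPM in hypoxia (log2 fold change 0.91, edgeR adjusted p = 0.099). Ubqln4, a ubiquilin, had 104, 111 and 102 CPM in controls, then 231, 171 and 113 CPM in hypoxia (log2 fold change 0.70, edgeR adjusted p = 0.14). In both the hypoxia pools all lay above the controls, for Ubqln4 by little in pool c. This held for 2 of the 10 genes, beside 14.6% of all genes tested, a share near the background. The adjusted p of Sqstm1 was under 0.05 in 1 of the 15 alternatives, and that of Ubqln4 in 2 of the 15. Their log2 fold changes ran over these alternatives from 0.48 to 1.07 and from 0.41 to 0.91. UCHL5, the deubiquitinase that docks on the Adrm1 protein, had 10.8, 10.2 and 12.8 CPM in controls, then 7.53, 8.13 and 8.79 CPM in hypoxia (log2 fold change -0.47, edgeR adjusted p = 0.14), without overlap.

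Of the 16 tested genes of the VCP segregase, which extracts proteins for the proteasome, 0 rose, 1 fell and 15 did not pass (median -0.13). Over all genes tested 4.56% rose and 1.8% fell. FAF1, a ubiquitin-binding cofactor of VCP, fell, with 38.96, 40.7 and 35.01 CPM in controls, then 23.3, 27.1 and 21.6 CPM in hypoxia (log2 fold change -0.67, 95% interval -1.04 to -0.31, edgeR adjusted p = 0.042). It kept the call with RLE factors, DESeq2, limma-voom, the CPM filter, the block, without control c, without both letter c libraries and with components summed, and lost it unscaled (adjusted p = 0.061), unfiltered (0.060) and on leaving out control a, control b or any 1 hypoxia pool (0.068 to 0.16). Plaa, which by name is a phospholipase A2 activator that works with VCP, had 10.1, 10.9 and 8.28 CPM in controls, then 7.38, 6.69 and 6.04 CPM in hypoxia (log2 fold change -0.54, edgeR adjusted p = 0.12). VCP itself, vcp, had 172, 193 and 192 CPM in controls, then 222, 198 and 135 CPM in hypoxia (log2 fold change -0.01). Its hypoxia a and b lay above every control and its hypoxia c below.

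Of 11 genes of ubiquitin, NEDD8 and the enzymes that activate or conjugate ubiquitin, SUMO and NEDD8, 0 passed and 9 were negative (median -0.24). Over all genes tested 6.36% passed and 50.2% were negative. NEDD8, the modifier that activates cullin ligases such as that of VHL, had 5.28, 4.30 and 5.48 CPM in controls, then 3.93, 3.10 and 2.59 CPM in hypoxia (log2 fold change -0.65, edgeR adjusted p = 0.13). Its groups did not overlap.

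Of 10 factors tied to proteasome gene control, 1 rose, 0 fell and 9 did not pass, beside 4.56% of all genes tested that rose and 1.8% that fell. Nfe2l2, which drives antioxidant genes and in mammals some proteasome genes, rose, with 52.1, 52.5 and 48.2 CPM in controls, then 82.1, 79.1 and 73.4 CPM in hypoxia (log2 fold change 0.62, 95% interval 0.28 to 0.96, edgeR adjusted p = 0.045). Its adjusted p rose to 0.074 when unfiltered, and to between 0.073 and 0.18 on leaving out control a, b or c or hypoxia a or b. Bach1, a repressor that competes for the same sites, had 16.7, 14.7 and 12.6 CPM in controls, then 20.1, 20.3 and 27.2 CPM in hypoxia (log2 fold change 0.62, edgeR adjusted p = 0.093). NFE2L1 (comp15332_c1), the factor that raises proteasome genes when activity is short, had 14.1, 15.6 and 12.4 CPM in controls a to c, then 21.1, 18.6 and 14.4 CPM in hypoxia pools a to c. Its groups overlapped at control b and hypoxia c, and it did not pass (log2 fold change 0.36, 95% interval -0.06 to 0.79, edgeR adjusted p = 0.3).

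Of 13 genes of antigen processing for MHC class I, which loads the peptides that the immunoproteasome cuts, 0 rose, 1 fell and 12 did not pass (median -0.24). Over all genes tested 4.56% rose and 1.8% fell. Tap2, named for a subunit of the peptide transporter, fell, with 4.46, 5.15 and 6.01 CPM in controls, then 2.15, 2.99 and 2.62 CPM in hypoxia (log2 fold change -1.01, 95% interval -1.51 to -0.51, edgeR adjusted p = 0.031). The call ended on leaving out control a, b or c or hypoxia a or b (adjusted p = 0.058 to 0.10) and with both Tap2 components summed (log2 fold change -0.46, adjusted p = 0.21). ERAP2, which trims those peptides, had 16.5, 17.9 and 13.9 CPM in controls, then 12.7, 12.6 and 12.03 CPM in hypoxia (log2 fold change -0.37, edgeR adjusted p = 0.22). Of 15 proteases outside the proteasome, 0 rose, 1 fell and 14 did not pass, beside the same shares of all genes tested (median -0.21). AFG3L2, a subunit of a mitochondrial inner membrane protease, fell, with 10.7, 13.9 and 13.1 CPM in controls, then 5.98, 8.35 and 7.61 CPM in hypoxia (log2 fold change -0.78, 95% interval -1.22 to -0.35, edgeR adjusted p = 0.046), and passed in 6 of 15 alternatives. It lost the call whichever 1 of the 6 libraries was left out (adjusted p = 0.057 to 0.17). CLPP, a protease of the mitochondrial matrix, had 12.98, 14.5 and 14.2 CPM in controls, then 9.79, 9.43 and 8.14 CPM in hypoxia (log2 fold change -0.61, edgeR adjusted p = 0.059). CLPX and LONP1 of the same list had log2 fold changes of 0.52 and 0.21 (edgeR adjusted p = 0.16 and 0.70), while 11 of the 15 were negative.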

How the data were processed

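Liver mRNA of 3 control and 3 hypoxia pools was analysed; the small RNA table was not used here. Per the labels' protocols the authors trimmed the reads and assembled them with Trinity, with RSEM 1.2.3 and DESeq listed in the submitters' processing notes. The deposited table gives estimated counts per component, made by the authors from the assembled reads and not scaled. It also gives the authors' RPKM, per length and depth; effective length in bases; and the authors' p-value, which equals the FDR column in all 34744 components and was under 0.05 for 0 of the members in the authors' deposited table. The lowest of the authors' p-values among the members was 0.26. The share of all components under 0.05 in that column was not counted, so the 0 is not read as a result about these genes. Genome build and strand are not given in the sources used here. No column of per-sample values was left unassigned.

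Counts were rounded and tested over all genes in edgeR 4.0.16 (R 4.3.3; TMM, filterByExpr, quasi-likelihood, two-sided, Benjamini-Hochberg, adjusted p under 0.05), checked on simulated data. The SE is the absolute log2 fold change over the square root of F, and 95% intervals use the fit's degrees of freedom. Alternatives used DESeq2 1.42.0, limma 3.58.1 and other scaling, filters and libraries. Python 3.11.15, pandas 2.3.3 and matplotlib 3.10.9 served for tables and figures. Depth was 32652402 to 35852327 counts. Pools are biological replicates per the labels.

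The letters were taken to pair the pools, from same-letter deviations from group means (log2 CPM, prior count 2). These correlated at 0.15, 0.19 and 0.31 for a, b and c across genes, which are not independent. Other pairs gave -0.29 to 0.18, and hypoxia a correlated more with control b (0.18) than with control a (0.15). The main fit holds the group only, so its p-values and intervals leave this pairing out. Only the replicate block, an alternative, takes it in. The same aquaria supplied controls and hypoxic fish, per the labels, which do not say that a letter is an aquarium. Members and lists were chosen with earlier results of these data known. Chosen for naming with values were members past the threshold or, as none passed, the 8 with the smallest p. The catalytic subunits, the highest member per part by RPKM and set members (psmd14, psmc1, psme1 to psme4, psmf1) were also chosen. So were, in each list, those that passed and the 2 with the smallest p. Other members, adrm1b, ECM29, Ankrd39, vcp, UCHL5, CLPX, LONP1 and NFE2L1 were added after their values were seen. A result that this rule would name is not reported here. Of the 46 member names, 34 matched a RefSeq symbol exactly and 8 with a suffix a or b.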

Additional observations from a re-analysis of the deposited data

How the results depend on the processing

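The count of 0 proteasome genes past the threshold held in all 15 alternatives, with a smallest adjusted p of 0.050 (psma2 with the replicate block). Under the block 16 of the 43 had an unadjusted p under 0.05. The share of all genes at that p was not counted there, so the 16 is not read as a result. The median log2 fold change of the proteasome genes kept its sign in all 15, from -0.37 without control a to -0.19 without both letter c libraries. It was -0.26 with library totals unscaled, a setting added after the data were seen that moved the median of all genes tested to 0.04. Single members near zero (Psmb7, PSMB8, Psmc4, PSMC5, PSMD1, psmd11b, Psmd3 and Psmd9) changed sign in some alternatives without passing. Over all genes, 1617 passed in the main analysis, 2456 with DESeq2, 2493 with the replicate block, 3816 without both letter c libraries, and 383 (without control a) to 1855 (without hypoxia c) without 1 library. Of the listed companion genes 4 passed, 2 with library totals unscaled, 8 with DESeq2, 1 with no filter, 11 without both letter c libraries, and 0 to 3 without 1 library. The block changed no other call than that of psmg2 among named genes. The causes were not tested.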
